A study of Mus musculus with 6 samples.

Results

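The genes described here encode the proteins of the cytosolic ribosome. They were taken from the authors' deposited table as every row whose symbol has the form of a cytosolic ribosomal protein (Rpl or Rps with a number and the usual suffixes, plus Rplp0, Rplp1, Rplp2 and Rpsa), which leaves out S6 kinases and named pseudogenes. The rule found 74 genes of the 14681 in the table, 43 of the large subunit and 31 of the small subunit. RNA was sequenced from the dorsal pancreas at embryonic day 18.5, in 3 control and 3 knockout mouse embryos. The embryos were of the C57BL/6 strain, and the knockout group is written Dpy30∆P, a deletion of Dpy30, a core subunit of the complexes that methylate histone H3. The name of the deposited table refers to Pdx1 rather than Dpy30, and the labels give neither the Cre driver nor the genotype of the controls, and the dissected tissue was whole, so epithelium, mesenchyme, vessels and blood are measured together. The table holds 1 test result per gene and no value per library, so the values in single embryos are not analysed here.

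Each ribosome joins a small subunit, which reads the messenger RNA, to a large subunit, which forms peptide bonds. Nearly every ribosomal protein is present in a single copy per ribosome, and cells therefore coordinate the synthesis of all of them, largely through translation: most of these mRNAs begin with a terminal oligopyrimidine (TOP) tract, an unbroken stretch of C and T bases at the start site, which the mTORC1 pathway and its partner Larp1 use to control their translation. In the developing pancreas, acinar cells build a very large protein synthesis apparatus ahead of enzyme secretion.

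Of the 74 genes, 57 had an entry in the RefSeq promoter table (GRCm38.p6), which covers 250 bases before and 50 bases from each annotated start. A run of at least 8 pyrimidines within 50 bases of a start, on the coding strand, was found in 48 of the 57 (84.2%), against 39.3% of the 27025 genes in that table. The windows below show 35 bases before and 25 bases from the annotated start, with runs of at least 8 pyrimidines in capitals. They are given for the 3 genes with an unadjusted p under 0.05 and an entry, and for the 3 most negative genes with an entry, because these are the ends of the range described below.
Rps26 (chr10:128626482-128626541, minus strand): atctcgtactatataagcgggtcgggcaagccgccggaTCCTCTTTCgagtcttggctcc
Rpl28 (chr7:4792930-4792989, plus strand): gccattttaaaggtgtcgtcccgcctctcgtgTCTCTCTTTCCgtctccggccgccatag
Rpl7a (chr2:26910772-26910831, plus strand): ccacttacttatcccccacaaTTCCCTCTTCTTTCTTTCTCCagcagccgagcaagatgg
Rpl10a, first start (chr17:28328436-28328495, plus strand): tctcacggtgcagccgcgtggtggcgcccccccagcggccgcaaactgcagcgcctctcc
Rpl10a, second start (chr17:28328530-28328589, plus strand): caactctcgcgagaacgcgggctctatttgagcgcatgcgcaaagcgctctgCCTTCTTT
Rpl7l1 (chr17:46782632-46782691, minus strand): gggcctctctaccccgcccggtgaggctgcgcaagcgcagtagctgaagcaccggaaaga
Rpl37a (chr1:72711225-72711284, plus strand): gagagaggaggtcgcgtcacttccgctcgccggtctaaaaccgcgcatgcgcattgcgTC
In Rps26, Rpl28 and Rpl7a the run lies at or within a few bases of the annotated start. In Rpl37a and at the second start of Rpl10a it begins near the end of the window shown and runs on beyond it, and Rpl7l1, an assembly factor rather than a ribosomal protein, has none. Annotated starts can lie some bases away from the true one.

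The ETS family motif CCGGAAG, searched on both strands of the whole window, was present in 25 of the 57 genes (43.9%), against 9.93% of all genes in the promoter table and 17.3% of those that are also in the expression table. The GC box GGGCGG was present in 35 of the 57 (61.4%), close to the 63.5% among genes in the expression table, and the TATA box TATAAA in 6 (10.5%, against 9.78%). The E-box CACGTG was in 6 genes (10.5%, against 10.8% of genes in the expression table), the YY1 motif AAGATGG in 8 (14.0%, against 7.90%) and the NRF1 motif in 2 (3.51%, against 2.04%). A match is a description of the letters in this window.

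Ribosomal protein genes were abundant. Their mean normalized counts, averaged by the authors over all libraries, summed to 4.44% of the table's total of 3663180, with a median of 1486 against 65.1 over all genes. In the large subunit the highest mean counts were 9407 for Rpl13a, 6926 for Rplp1, 6722 for Rpl28 and 5417 for Rpl17. In the small subunit they were 7149 for Rpsa, which is also known as a laminin receptor precursor, 6064 for Rps14, 5676 for Rps6, the target of the S6 kinases, and 4499 for Rps7. At the other end were Rpl3l (4.01), the muscle form of Rpl3, and Rpl22l1 (106), then Rpl38 (247) and Rpl39 (249), a very short protein of the exit tunnel. The lowest of the small subunit were Rps27l (48.6), Rps4l (72.3), Rps21 (309.6) and Rps25 (369.7).

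Counts depend on transcript length, so levels were also divided by the length of the GENCODE M21 transcripts of each gene. Over the 69 members that are core ribosomal proteins, the median level was 2180 mean counts per kilobase, with quartiles of 1033 and 3460.5. The ratio between the quartiles was 3.35, and with the shortest annotated coding transcript of each gene it was 3.41. Rplp1, which with Rplp0 and Rplp2 forms the stalk that recruits elongation factors, had the highest level under either length, at 13879 per kilobase. Rplp0 had 3431 and Rplp2 2448 per kilobase under the principal transcripts. The median was 2091 per kilobase for the large subunit and 2665 for the small subunit. The paralogs were far below the genes they resemble: Rpl22l1 had 192.4 per kilobase against 818.7 for Rpl22, Rps27l 97.4 against 2902 for Rps27, and Rpl3l 2.91 against 2222 for Rpl3. The value of Rpl22 depends on the length used and was 3537 with its shortest coding transcript.

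The direction of the fold changes is stated neither in the labels nor in the table. Higher and lower mean a positive and a negative deposited value, read as higher or lower in the knockout by the usual convention, and every direction would turn under the other one. Dpy30 itself had a mean count of 29.4 and a reconstructed log2 fold change of 0.49 ± 1.64 (SE), so it neither checks the labels nor sets the direction. The authors' deposited values are shrunken towards 0. Sizes are therefore given as unshrunken log2 fold changes reconstructed from the deposited value and its error, with the reconstructed standard error (SE). They are used where they return the deposited p to within 0.1 in z and the SE is at most 1, which held for 69 of the 74 genes, 41 of the large and 28 of the small subunit. These genes are called well determined.

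Cytosolic ribosomal protein genes were mostly above 0 by a small amount, and none was called. In the authors' deposited table, 0 of the 73 genes with an adjusted p were under 0.05 in the authors' DESeq2 test, where 0.743% of all 12108 genes were. At an unadjusted p under 0.05, 5 of 74 were higher (6.76%) and 0 were lower, against 2.7% higher and 2.7% lower (5.39% in all) over the 14386 genes with a p. Among the 1067 genes with a p and a mean count of at least 500, where most of these genes lie, 4.87% were higher and 8.34% lower. The deposited value was positive for 58 of 74 genes (78.4%), against 54.8% of all genes with a p.

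Among the well determined genes, 56 of 69 (81.2%) were above 0, with a median log2 fold change of 0.26 and quartiles of 0.03 and 0.53. Over all 5726 well determined genes 47.2% were above 0 and the median was -0.04, and over the 1056 of them with a mean count of at least 500 these were 50.2% and 0.00. At a mean count of at least 1000 they were 54.1% and 0.07. Relative to the median of those genes 47 of the 69 members were above 0, and relative to 4 epithelial markers 69 of 69. The second scaling adds 0.84 to every gene, and the lowest member was at -0.65, so the 69 follow from the shift alone. The 4 markers themselves ran from -1.23 to -0.36, and the share of all genes above 0 after this shift was not computed. The inverse-variance mean of the 69 genes was 0.26 ± 0.04 (SE), or 1.20-fold, with a 95% interval from 1.13-fold to 1.27-fold. That error treats the genes as independent. All of them were measured in the same 6 libraries, so it is too small, and no test was made on the mean.

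Tissue markers moved with the comparison as well. Pancreatic markers were present, with mean counts of 8918 for Clps and 5335 for Ins2. The acinar markers had a median log2 fold change of -2.39 over 6 well determined genes, with 5 of the 6 that have an adjusted p called lower. Pnlip, also listed as an acinar marker, had a positive deposited value at a mean count of 7.23, and its size could not be determined. Endocrine markers had a median of -2.65 over 5, with 4 called lower. Epithelial markers had -0.67 over 4, with 1 called lower. The 6 mesenchyme markers were all above 0, between 0.11 and 0.82 with a median of 0.59, with 4 past an unadjusted p of 0.05 and 0 called by DESeq2. Of all genes with a mean count of at least 1000, 9.29% were higher at that limit. The endothelium markers Pecam1 and Cdh5 were at 0.04 ± 0.51 and 0.17 ± 0.44 (SE), and Kdr had a negative deposited value. All 6 liver markers had a positive deposited value, with 4 past an unadjusted p of 0.05, where 2.7% of all genes with a p were higher, and 0 called. All 5 erythroid markers in the table were also positive, and 1 of them, Gata1, was called higher, with a DESeq2 adjusted p of 0.0235. Gata1 had a mean count of 29.4 and a deposited value of 0.045 ± 0.226 (posterior SD), and its size could not be determined. The 2 well determined erythroid markers, Alas2 and Slc4a1, were at 0.40 ± 0.53 and 0.63 ± 0.83 (SE), with intervals that include 0. In bulk tissue, fewer cells of a type and less RNA per cell cannot be told apart, and the part of these markers in the values of the ribosomal protein genes was not tested.

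**Figure D1:**
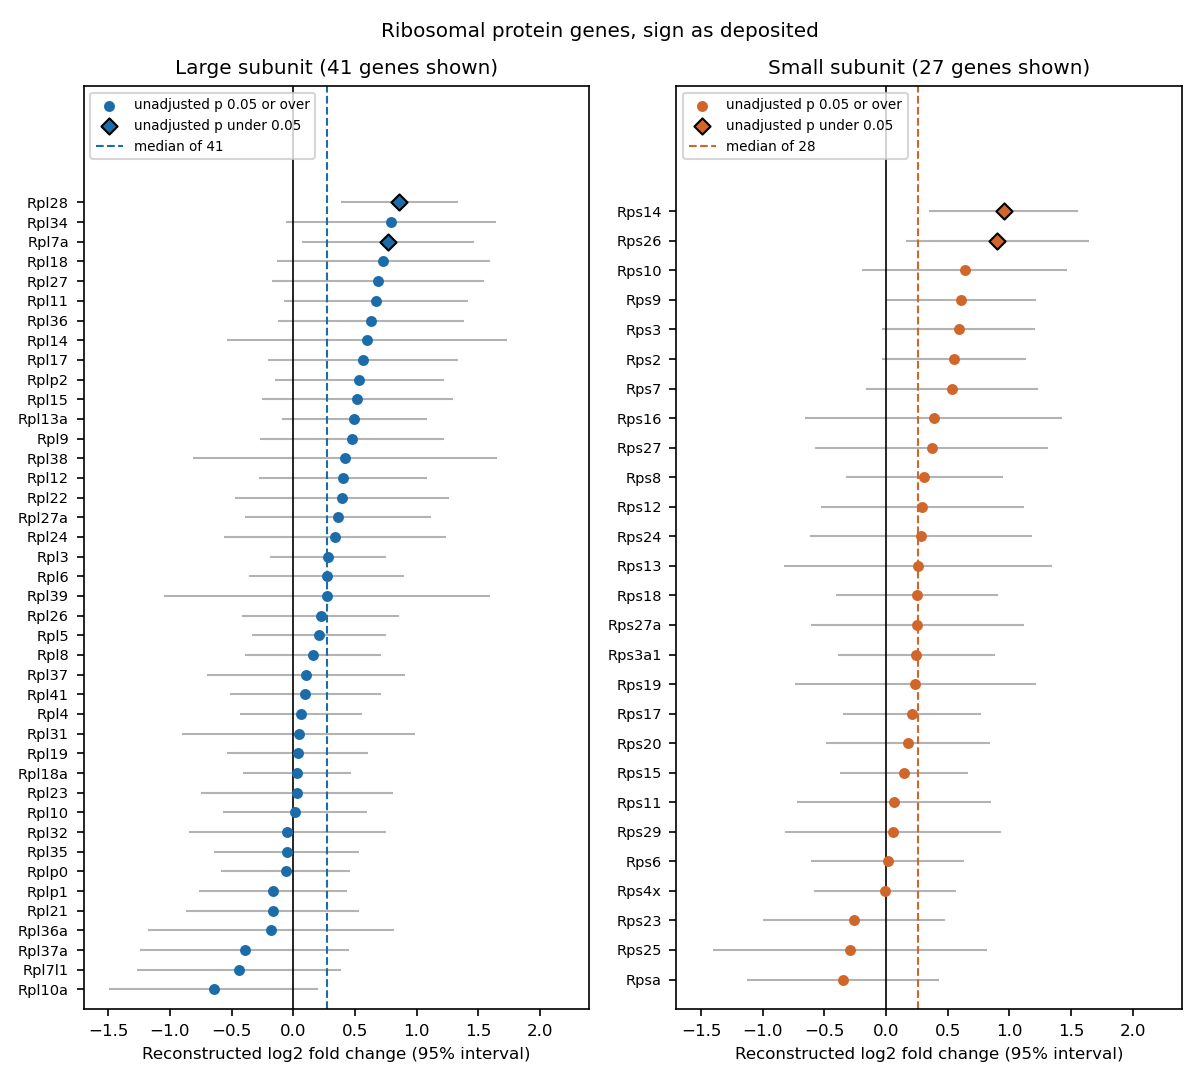
Unshrunken change in log2 units on the x axis, with the sign of the deposited value, for the 41 large and 27 of 28 small subunit genes that are well determined (y axis), with 95% intervals; diamonds have an unadjusted p under 0.05 and the dashed line is the median. Rpl10a is lowest at -0.65, and most intervals include 0.

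Genes with an unadjusted p under 0.05 lie near the top of the range in both subunits. Rpl28, a protein of the large subunit (Entrez gene 19943; chromosome 7, 4792965 to 4794547, GRCm38), was closest to a call. Its log2 fold change in the authors' deposited table was 0.72 ± 0.26 (posterior SD), with p = 0.000378 and adjusted p = 0.0503 by DESeq2. Its reconstructed value was 0.86 ± 0.24 (SE), or 1.81-fold with a 95% interval from 1.31-fold to 2.52-fold. Rps14, a protein of the small subunit platform whose loss in humans causes a macrocytic anaemia (Entrez gene 20044), was at 0.74 ± 0.35 (posterior SD) in the authors' deposited table. Its p was 0.00204 and its adjusted p 0.161 in that deposited table, and its reconstructed value was 0.96 ± 0.31 (SE), or 1.94-fold. The 95% intervals of Rpl28 and Rps14 overlap over most of their length.

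Rps26, which lies at the exit of the mRNA channel, had a reconstructed value of 0.90 ± 0.38 (SE) and an unadjusted p of 0.0168 in the authors' deposited table. Rpl7a, a large subunit protein, was at 0.77 ± 0.36 (SE). The unadjusted p of Rpl7a was 0.0313, and the adjusted p was 0.545 for Rps26 and 0.678 for Rpl7a in the authors' DESeq2 table. In size Rps26 and Rpl7a cannot be ordered, because their intervals overlap widely.

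The other genes near the top of the large subunit were Rpl34 at 0.80 ± 0.43 and Rpl18 at 0.73 ± 0.44 (SE). In the small subunit Rps10 was at 0.64 ± 0.42. Rps9, at 0.61 ± 0.31, had a deposited p of 0.0505, just above the threshold. At the lower end no gene passed an unadjusted p of 0.05. Rpl10a, the protein of the mobile stalk at the tRNA exit, was lowest at -0.65 ± 0.43 (SE). Next in the large subunit were Rpl7l1 at -0.44 ± 0.42, Rpl37a at -0.39 ± 0.43 and Rpl36a at -0.18 ± 0.51. In the small subunit Rpsa was at -0.35 ± 0.40, Rps25 at -0.29 ± 0.57, Rps23, a decoding centre protein, at -0.26 ± 0.38, and Rps4x at -0.01 ± 0.29.

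Members of the same substructure were spread over the range. Among the stalk proteins, Rplp0 was at -0.06 ± 0.27 (SE), Rplp1 at -0.16 ± 0.31 and Rplp2 at 0.54 ± 0.35. Rpl5 and Rpl11, which enter the ribosome together as one particle and bind Mdm2 when assembly fails, were at 0.21 ± 0.28 and 0.67 ± 0.38. All of these intervals include 0 and overlap each other. Rps6 was at 0.01 ± 0.32, and Rpl13a, the most abundant member, at 0.50 ± 0.30. Rpl17 was at 0.56 ± 0.39 and Rps7 at 0.53 ± 0.36. Of the 4 lowest-count members in each subunit, Rpl38 and Rpl39 were well determined, at 0.42 ± 0.63 and 0.27 ± 0.67, as was Rps25.

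Large and small subunit genes had nearly the same median. It was 0.27 for the large subunit (quartiles 0.03 and 0.52; 32 of 41 above 0) and 0.26 for the small subunit (quartiles 0.13 and 0.54; 24 of 28 above 0). The difference of the medians, large minus small, was 0.01. The inverse-variance means were 0.23 ± 0.05 and 0.31 ± 0.07 (SE), so their difference had the other sign, -0.08. The genes of both subunits share the same 6 libraries, so these errors are too small, and the difference between the subunits was not tested. At an unadjusted p under 0.05, 2 of 43 large (4.65%) and 3 of 31 small subunit genes (9.68%) were higher. The share was 2.7% over all genes with a p and 4.87% over those with a mean count of at least 500. The SD among single genes was 0.36 within the large and 0.35 within the small subunit.

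**Figure D2:**
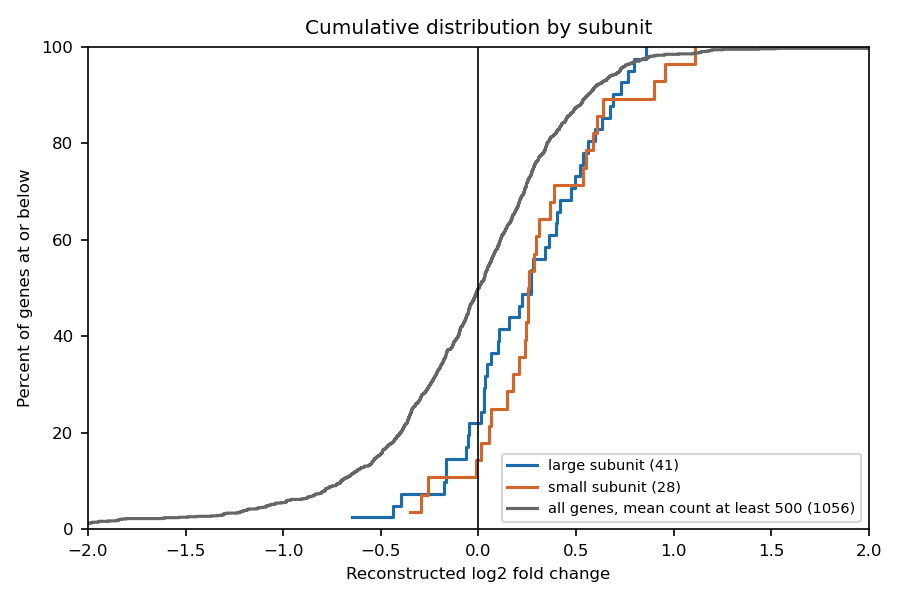
Percent of genes (y axis) at or below a reconstructed log2 fold change (x axis) for large subunit, small subunit and all well determined genes with a mean count of at least 500. Both subunit curves lie to the right of the curve of all genes over most of the range and cross each other, with medians of 0.27 and 0.26 against 0.00.

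The spread among the 69 genes was no larger than their errors. Their values had an SD of 0.35, and the root mean square of their SE was 0.40. For all genes with a mean count of at least 500 the SD was 0.59 beside the same measure of 0.40. The 95% interval excluded the members' own mean for 3 of 69 genes. For 29 of 69 the interval lay wholly within a 2-fold change either way, so a 2-fold change of the others was not excluded at this precision. Across the 69 genes, the fold change had a Pearson r of 0.08 with the log of the mean count, and of -0.08 with the log of the transcript length. The genes share their libraries, so these are descriptions.

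**Figure D3:**
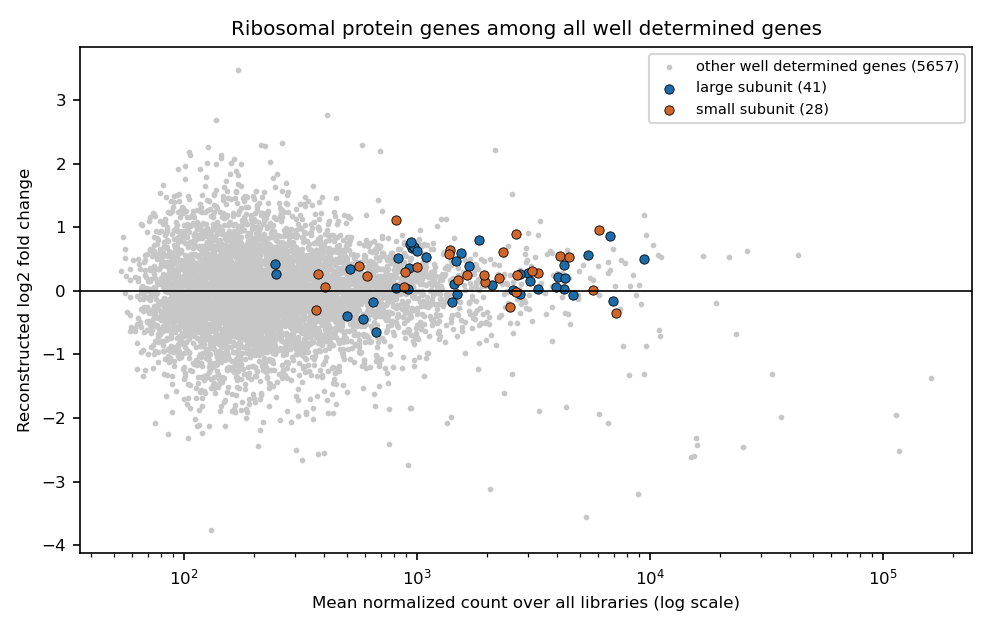
Reconstructed log2 fold change (y axis) against the mean normalized count over all libraries (x axis, log scale) for 5657 other well determined genes (grey) and the large (blue) and small (orange) subunit genes. Ribosomal protein genes lie in a narrow band around their median of 0.26, while the most abundant other genes reach far lower values.

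Of the 5 members that were not well determined, 4 are paralogs with few counts. Rps4l, a relative of Rps4x, had a reconstructed value of -1.75 ± 1.14 (SE), Rps27l, a p53-responsive relative of Rps27, -1.28 ± 1.54, and Rpl22l1, the relative of Rpl22, 0.14 ± 1.34. For Rpl3l the authors' deposited table lists p = 0.152 and no adjusted p; its size is not given. Rps21, a core small subunit protein, was the fifth: with a mean count of 309.6 its value was 1.22 ± 1.83, an error well above that of members with similar counts. The genes that these paralogs resemble were at 0.40 ± 0.44 for Rpl22, 0.37 ± 0.48 for Rps27 and 0.28 ± 0.24 for Rpl3. Of the 5 members outside the core ribosome, which are these 4 paralogs and Rpl7l1, 1 was positive in the authors' deposited table, against 57 of 69 core members. The errors leave a several-fold change of the paralogs undetectable either way. Of 79 core genes listed, 8 (Rpl7, Rpl13, Rpl23a, Rpl29, Rpl30, Rpl35a, Rps15a and Rps28) are not analysed here.

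Ribosomal protein genes have many processed pseudogenes, to which reads can be assigned, so single values are uncertain. Of the 74 members, 49 had at least 1 pseudogene that carries the member's name in GENCODE M21. The median log2 fold change was 0.28 for these 49 and 0.21 for the 20 well determined genes without one. Many ribosomal protein genes also carry snoRNA genes in their introns, the small RNAs that guide modification of ribosomal RNA. The 27 members with an annotated snoRNA gene inside had a median of 0.27, with 24 above 0, and the 42 well determined ones without had 0.25, with 32 above 0. The 4 members on the X chromosome, Rpl10, Rpl36a, Rpl39 and Rps4x, had a median of 0.00, and the 65 autosomal ones of 0.27. Neither difference was tested.

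Members with a run of at least 8 pyrimidines within 50 bases of an annotated start lay somewhat higher than those without. Such a run need not lie at the start itself, so this does not divide TOP mRNAs from others. The median log2 fold change was 0.33 (quartiles 0.09 and 0.54) for the 44 well determined genes with such a run, 38 of them above 0. It was 0.03 (quartiles -0.06 and 0.26) for the 9 without: Rpl23, Rpl24, Rpl7l1, Rplp0, Rps13, Rps3, Rps3a1, Rps4x and Rpsa, 5 of them above 0. The limit of 8 was set after sequences and fold changes had been seen. The difference was not tested, the quartile ranges overlap, and Rps3, without a run, was at 0.59 ± 0.32 (SE). For the ETS motif the medians were 0.27 with it and 0.29 without.

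**Figure D4:**
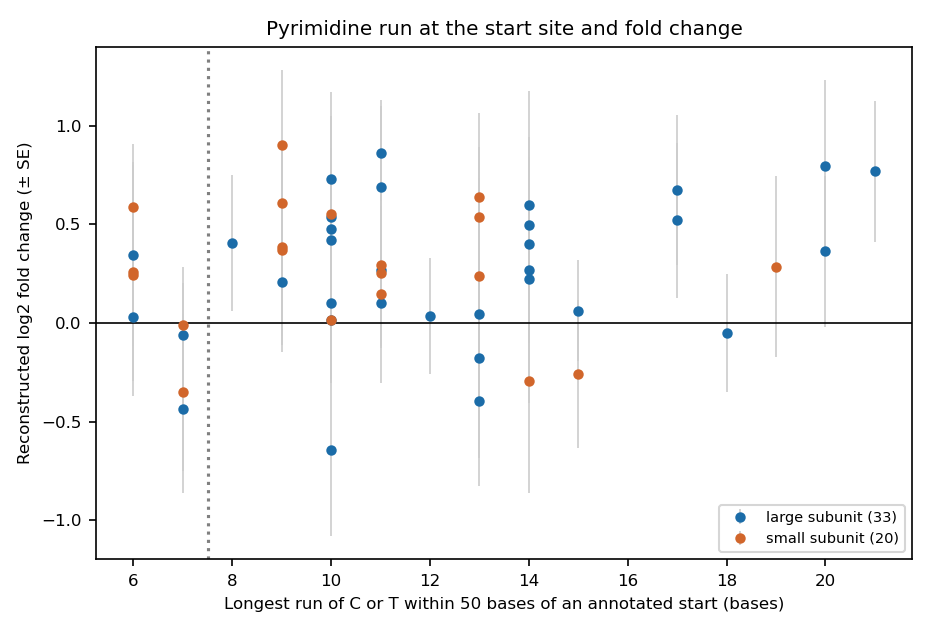
Reconstructed log2 fold change with its SE (y axis) against the longest run of C or T within 50 bases of an annotated start (x axis, bases) for 53 well determined genes with a promoter entry, with the limit of 8 bases dotted. Values at 6 and 7 bases run from -0.44 to 0.59, and Rpl7a with 21 bases is at 0.77.

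The well determined ribosomal proteins that the symbol rule leaves out were on the side of the members. The lists of other translation genes had medians nearer to 0 or below it. Rack1, a scaffold on the small subunit, was at 0.47 ± 0.30 (SE), and Fau, made as a ubiquitin-like fusion, at 0.36 ± 0.31. Rpl36al was not well determined. Of 16 translation genes with TOP mRNAs, 15 were in the table; 9 of 15 were above 0, the median was 0.07, and 0 had an unadjusted p under 0.05. In that list Eif3f, an initiation factor subunit, had the smallest p above 0 (0.69 ± 0.64) and Eif4b, a helicase cofactor, the smallest below 0 (-0.44 ± 0.40). Initiation factors had a median of -0.07 over 28 well determined genes. Of their 30, 2 (6.67%) were lower at an unadjusted p under 0.05, against 2.7% of all genes with a p. Over all genes with a mean count of at least 500 the share was 8.34%. Eif5b, which joins the subunits at the start codon, was 1 of the 2, at -1.11 ± 0.39 (SE), with a DESeq2 adjusted p of 0.276.

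Nucleolar ribosome assembly factors had a median of -0.30 over 36 well determined genes, with 14 above 0. Of the 46 in the table, 2 were higher and 1 lower at an unadjusted p under 0.05. That is 6.52% in all, against 5.39% of all genes with a p. Nop2, an rRNA methyltransferase, was at 2.00 ± 0.80 (SE), with a DESeq2 adjusted p of 0.531, and Utp4 had the smallest p among the lower ones (0.0191, deposited by the authors). RNA polymerase I genes had a median of -0.36 over 6 genes. Mitochondrial ribosomal proteins, which serve the separate ribosomes of mitochondria, had a median of -0.24 over 26 well determined genes of 70, with 12 above 0. The inverse-variance mean of these 26 was 0.04 ± 0.15 (SE), so the list has no clear side. Of all 70 mitochondrial genes, 45 (64.3%) had a positive deposited value, against 54.8% of all genes with a p. One mitochondrial gene, Mrpl44, was called higher by the authors' DESeq2 test, with an adjusted p of 0.0115. Its mean count was 36.5 and its size could not be determined.

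mTORC1 pathway and S6 kinase genes had a median of 0.20 over 10 genes, and p53 targets, which respond to failed ribosome assembly, of -0.14 over 9. By the authors' DESeq2 test no member of either list was called (0 of 15 and 0 of 14 with an adjusted p), while 1 and 0 passed an unadjusted p of 0.05. Of all genes with a p, 5.39% passed that limit. Whether any of these lists differs from the ribosomal protein genes was not tested. The assembly factors and mitochondrial genes have far lower counts and larger errors.

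**Figure D5:**
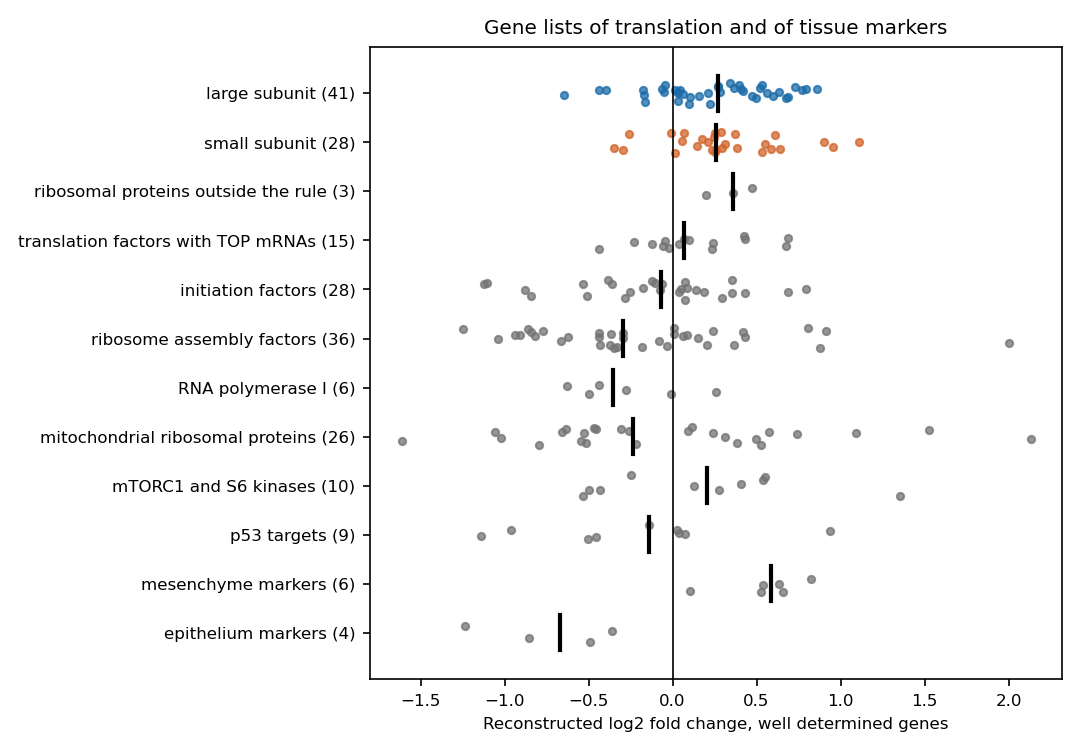
Reconstructed log2 fold change (x axis) of well determined genes in lists of translation genes and of tissue markers (y axis, number of genes in brackets); each point is a gene and the black bar is the median. The 2 subunits centre at 0.27 and 0.26, assembly factors at -0.30, mesenchyme markers at 0.59 and epithelium markers at -0.67.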

How the data were processed

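RNA from the dorsal pancreas of 3 control and 3 knockout embryos was sequenced as stranded libraries after removal of ribosomal RNA, per the labels' protocols. The submitters' processing notes name Trimmomatic, Salmon, DESeq2 and GRCm38 (mm10). For versions and annotation, nothing is given in the sources used here. The deposited table gives, per the file headers, a mean normalized count over all libraries (a signal with no depth per library), a log2 fold change and its error deposited on the log2 scale, and the authors' DESeq2 p-value, raw and adjusted. No gene was tested again. Groups follow the sample titles.

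Deposited log2 fold changes were treated as posterior modes under a Cauchy prior. A scale of 0.3103 gave back the deposited p most closely, and 88.6% of genes with a p matched to within 0.1 in z. On simulated data for the 5726 well determined genes, with 200 changed, 100% of values were recovered to within 0.05, under the model assumed. Python 3.11.15, numpy 2.4.6 and scipy 1.17.1 were used. RefSeq and GENCODE M21 are on the authors' build, and 57 of 74 members matched the promoter table by gene ID.

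Members, lists and tests were chosen with earlier results of these data known. The genes named are those of the 4 highest and 4 lowest mean counts and fold changes in each subunit, those with an unadjusted p under 0.05 or no determined size, paralogs and stalk proteins, Rpsa, Rpl5 and Rpl11, and the smallest p in each direction of other lists. Values of 2 genes under this rule are not reported here. Others in the text (such as Rps9 and Rps6) were named after their values were seen. Cell type markers serve only to describe the tissue. The second transcript length and the limit on pyrimidine runs were added after values had been seen. Alternatives are described at the end.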

Additional observations from a re-analysis of the deposited data

How the results depend on the processing

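With an adjusted p under 0.1, or with the adjustment made over genes with a mean count of at least 100, 1 ribosomal protein gene was called instead of 0; it is Rpl28, with an adjusted p of 0.0415 in the second case and 0.0597 over all genes with a p. Scaling on 4 pan-epithelial genes adds 0.84 to every gene, which left 0 of 69 genes lower and gave medians of 1.11 (large) and 1.10 (small) and a mean of 1.10. Scaling on the median of genes with a mean count of at least 1000 takes 0.07 from every gene, which gave 0.20 for the large subunit median and 0.19 for the mean, with 22 of 69 lower. The deposited shrunken values gave 0.066 (large), 0.0633 (small) and 0.0634 (mean). The difference between subunit medians was -0.031 when all members with a reconstructed value were used, against 0.01; neither was tested. Of 42 alternative values, 30 kept the direction and stayed within the error or within 1.5 times the count. Some of the 30 could not differ, because a mean count of at least 100 kept all 69 well determined members. Without paralogs 68 of them remained. A prior scale 0.001 smaller or larger, and the z of the deposited p times the SE, were added after seeing the data. A prior scale 1.5 times smaller left 0 matched members, and one 1.5 times larger left 11 and 4, so neither gives a value. Without values per library, leaving out a replicate was not possible. No paired analysis was possible because the table holds no values per library. Depth per library is unknown.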
